A study of Drosophila melanogaster with 24 samples.

Results

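Sites bound together by Su(Hw), CP190 and Mod(mdg4) but by no detectable CLAMP were described in cultured Drosophila melanogaster cells of the embryonic line Kc167. The sites were chosen by peak overlap alone: on arms X, 4, 2L, 2R, 3L and 3R, a Su(Hw) peak of mock cells had to share at least 1 base with a CP190 peak and with a Mod(mdg4) peak, and to share no base with a CLAMP peak of either antibody. Of 3687 Su(Hw) peaks on these arms, 1057 (28.7%) met the rule, and they are called triple sites without CLAMP below. Another 182 Su(Hw) peaks had both partners and CLAMP, 55 of them with the first antibody alone, 31 with the second alone and 96 with both. Triple sites without CLAMP were thus 85.3% of the 1239 triple sites.

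The study mapped Su(Hw), Mod(mdg4), CP190 and CLAMP by chromatin immunoprecipitation with sequencing, to see how far CLAMP shares the sites of the insulator proteins. There were 24 libraries in 8 groups, 12 of them inputs, and each ChIP list came from 2 libraries pooled by the authors, so no value has a replicate error and intervals cover counting error only. The mock lists were Su(Hw) (guinea pig serum), Mod(mdg4) isoform 2.2 and CP190 (rabbit sera) and CLAMP with a pair of rabbit antibodies, clamp (the first) and clamp-abcam (the second). A list with the second CLAMP antibody came from cells transfected with 5 ug of dsRNA against Clamp and kept for 6 days, and it held 1653 peaks on the arms against 3861 in mock cells. What the mock cells received is not stated in the labels. Kc167 is a single permanent line, and read depth is unknown, so a site without CLAMP is a site where no CLAMP peak passed the authors' threshold. Peak positions are on build dm6, and gene positions are from RefSeq's gene table of the same assembly.

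Su(Hw) is a zinc-finger protein that binds DNA and recruits the other proteins of the gypsy insulator, a DNA element first found in the gypsy retrotransposon that blocks an enhancer when it lies between the enhancer and its promoter. CP190 and Mod(mdg4) carry BTB domains through which such proteins contact each other, and CP190 is also recruited by other DNA-binding insulator proteins. CLAMP is a zinc-finger protein that binds GA-rich sequences and is known for its part in dosage compensation of the X chromosome. The rule used the presence of peaks in the 5 mock lists, so strengths, widths and summit distances of those peaks are given as a description, without a test. Fold enrichment below is the authors' own value, a ratio of ChIP to background at the summit.

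Triple sites without CLAMP were found mainly among strong Su(Hw) peaks. Their median Su(Hw) fold enrichment was 10.9 (95% interval of the median 10.5 to 11.2), against 7.14 for all Su(Hw) peaks, and 78.5% of them lay above that value. With all Su(Hw) peaks divided by fold into 10 classes holding 368 or 369 peaks each, triple sites without CLAMP made up 1.9% of the weakest class (7 peaks) and 63.7% of the strongest (235 peaks), and their share rose at every step. Triple sites with CLAMP also had their largest share in the strongest class, 15.4%. Su(Hw) peaks with CP190 but neither Mod(mdg4) nor CLAMP were most frequent in the middle, at 49.6% of the fifth class. Su(Hw) peaks with none of these proteins fell from 42.8% to 2.98%. Among the triple sites without CLAMP, ranked by Su(Hw) fold into 4 classes, the median Mod(mdg4) fold also went from 3.42 in the weakest to 6.02 in the strongest, and the part of the Mod(mdg4) threshold in this pattern was not tested.

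**Figure D1:**
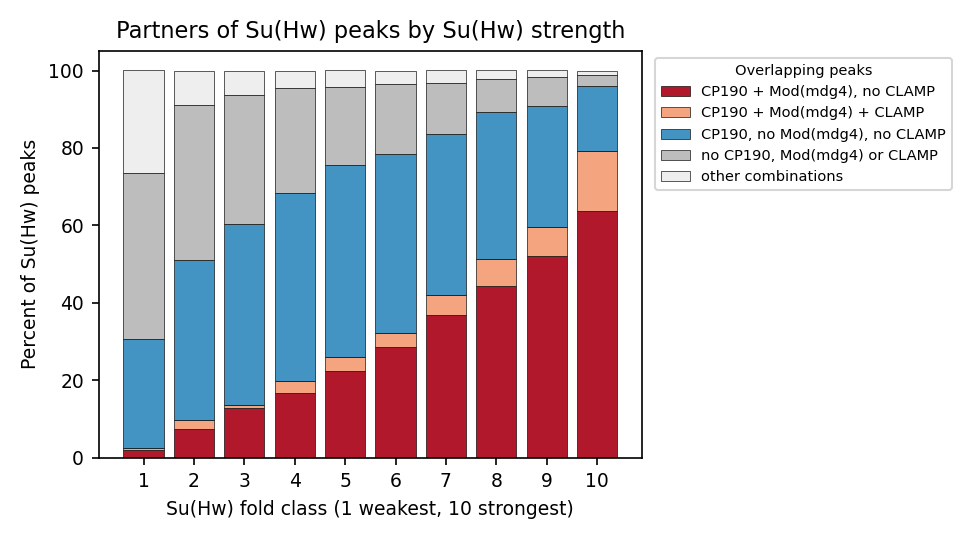
Share of Su(Hw) peaks (percent, y axis) by overlapping peaks in 10 classes by Su(Hw) fold enrichment (x axis, 1 weakest). The red part, triple sites without CLAMP, grows from 1.9% to 63.7%, and the grey part, Su(Hw) with no CP190, Mod(mdg4) or CLAMP, shrinks from 42.8% to 2.98%.

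The partner peaks at these sites were strong within their own lists as well, CP190 more so than Mod(mdg4). The CP190 peak had a median fold of 11.9 (11.6 to 12.3), and 97.5% of the sites had a CP190 fold above 5.59, the median of all 9435 CP190 peaks. The Mod(mdg4) peak had a median fold of 4.19 (4.1 to 4.33), and 65.5% of the sites were above 3.54, the median of all 1732 Mod(mdg4) peaks. The 3 lists overlapped here in different proportions: 1059 Mod(mdg4) peaks (61.1% of that list) but 1005 CP190 peaks (10.7%) touched a triple site without CLAMP. CP190 peaks were the widest, with a median of 1269 bases, against 582 for Su(Hw) and 446 for Mod(mdg4). Across the 1057 sites the folds moved together, with a Spearman rho of 0.684 between Mod(mdg4) and CP190, 0.463 between Su(Hw) and Mod(mdg4) and 0.431 between Su(Hw) and CP190. The sites share the same pooled libraries and the same chromatin, so these values describe the lists and carry no p.

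The 10 strongest Su(Hw) sites had folds of 24.5 to 29.9 and lay on 5 arms. The largest Su(Hw) fold, 29.9, was found on 2R (13403461 to 13404112), 3167 bases from an end of BaraA2, which encodes an antimicrobial peptide. Mod(mdg4) had 13.1-fold and CP190 17.7-fold enrichment there, and the Mod(mdg4) and CP190 summits lay 4 bases and 1 base from the Su(Hw) summit. All 3 proteins therefore peaked on nearly the same base at the strongest site. The next was a site with 29.3-fold Su(Hw) enrichment within CG3097 and CG42699 on X (5766129 to 5767683). A site 121 bases from an end of the odorant receptor gene Or43a had 28.8-fold enrichment, and one within CG42674 had 28.2-fold. Within Lmpt, which encodes a LIM domain protein, the fold was 26.9. Within Tk, the gene of the tachykinin neuropeptides, it was 25.9, and within fru, which encodes transcription factors of courtship behaviour, it was 24.7. A pair of sites near CG12617 on 2L (25.1- and 24.5-fold) and a site near lncRNA:CR43298 (25-fold) completed the 10 strongest. Their Mod(mdg4) folds ranged more widely than their Su(Hw) folds, from 3.46 near lncRNA:CR43298 to 13.1 at BaraA2.

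The largest Mod(mdg4) and CP190 folds were found mostly at other sites. Mod(mdg4) was strongest, 14.9-fold, within pyd, which encodes a cell junction protein, on 3R (8863095 to 8863763), 391 bases from the transfer RNA gene tRNA:Arg-TCG-2-4. It followed at Pdp1, a circadian transcription factor gene (13.5-fold), at BaraA2, at the octopamine receptor gene Octalpha2R (13.1-fold) and within CG17230, 467 bases from an end of sals (13-fold). CP190 was strongest, 23.5-fold, 307 bases from an end of sim, which encodes a transcription factor of the nervous system midline, where Su(Hw) had 9.08-fold enrichment. On arm 4 the site in sv, a Pax family gene, and in Cals, which encodes a calsyntenin, had 22.6-fold CP190 and 9.6-fold Su(Hw) enrichment. The pyd site, with 22.1-fold, was the third of the list, and sites within the cell polarity gene pk (22.1-fold) and within shd, which encodes an enzyme that makes the molting hormone (21.3-fold), came next. The pyd and BaraA2 sites were among the leading sites of a pair of lists each, and no site led in all 3.

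A site was found at the yellow-achaete insulator. An endogenous Su(Hw) insulator named 1A2 is known from reporter assays to lie between y, a gene of cuticle pigmentation, and ac, a gene of nerve precursor formation. The triple site lay on X from 361264 to 361895, with its summit 356 bases from an end of y (356509 to 361245) and before ac (370031 to 370947), in the span of the overlapping gene CG32816. It had 15.4-fold Su(Hw), 9.9-fold Mod(mdg4) and 19.7-fold CP190 enrichment, with the Mod(mdg4) and CP190 summits 19 and 44 bases from that of Su(Hw). The nearest CLAMP peak edge lay 82359 bases away.

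The summits of the proteins lay close together. The median distance from the Su(Hw) summit was 25 bases (23 to 28) to the Mod(mdg4) summit and 26 bases (24 to 27) to the CP190 summit, and 30 bases separated the Mod(mdg4) and CP190 summits. Within 50 bases of the Su(Hw) summit lay 74.6% of the Mod(mdg4) summits and 72.8% of the CP190 summits, and 58.9% of the sites (623) had both. Neither partner leaned to a side: the Mod(mdg4) summit had the higher coordinate at 514 sites, the lower at 529 and the same base at 14, and for CP190 these counts were 532, 506 and 19. Triple sites with CLAMP had medians of 24 bases to Mod(mdg4) (21 to 28) and 29 bases to CP190 (22 to 38), whose intervals overlap those of the sites without CLAMP. Su(Hw) peaks with CP190 but neither Mod(mdg4) nor CLAMP had a median of 32 bases to CP190 (30 to 35), a value set beside the others without a test.

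**Figure D2:**
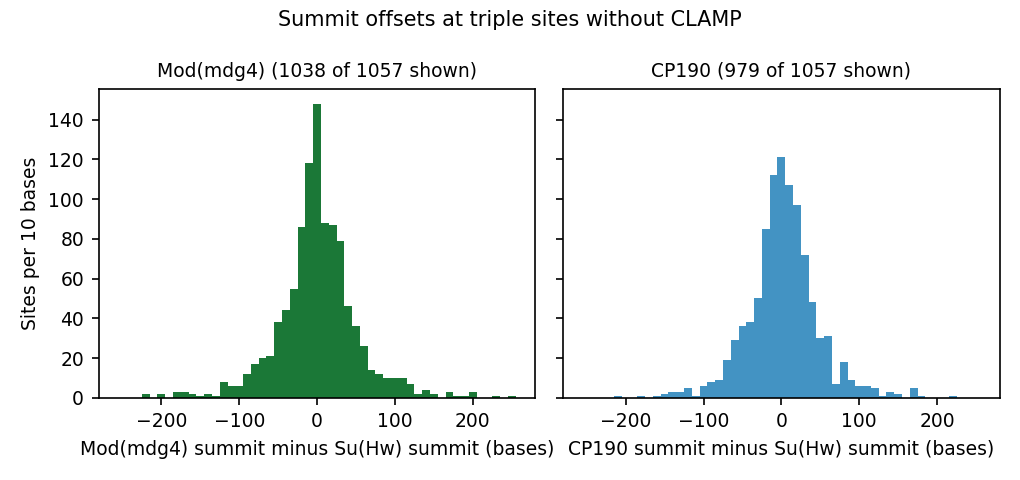
Signed distance in bases (x axis) from the Su(Hw) summit to the summit of the overlapping Mod(mdg4) peak (left) and CP190 peak (right), counted in bins of 10 bases (y axis), for the sites within 250 bases. By genome coordinate, without orientation of the sites, both distributions centre on the Su(Hw) summit, with signed medians of -1 and 1 bases. Of the 1057 sites 1038 and 979 are shown.

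Stronger sites had somewhat closer summits, with a Spearman rho of -0.173 between Su(Hw) fold and the distance to Mod(mdg4). In the 4 classes of sites by Su(Hw) fold, the median distance to Mod(mdg4) was 32, 28, 24.5 and 19 bases from the weakest to the strongest class. To CP190 it was 31, 27.5, 25.5 and 20 bases. The intervals of neighbouring classes overlapped for both partners. Those of the weakest and strongest class were apart for Mod(mdg4) (27 to 38 and 16 to 22) and overlapped for CP190 (24 to 37 and 16 to 25). The Mod(mdg4) fold rose over the same classes, and its part in the distances was not tested.

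At some sites the CP190 summit was distant, and at most of these it lay at a neighbouring Su(Hw) peak. The CP190 summit lay over 250 bases away at 78 sites (7.38%), while the Mod(mdg4) summit did so at 19, of which 14 also had a distant CP190 summit. The distant CP190 summit was within 250 bases of another triple site without CLAMP at 51 of the 78 (65.4%) and of any other Su(Hw) summit at 54, which leaves 24 with no other Su(Hw) summit there. In all, 53 of the 78 shared their CP190 peak with another triple site without CLAMP. A CP190 peak has a single summit, so sites far apart within a shared peak cannot all lie near it. The distant summits at these 53 sites thus follow in large part from the sharing and are no separate result about CP190. At these 78 sites, a set chosen after the values were seen, the CP190 peak was wider, with a median of 2774.5 bases against 1218 at the other 979. The median distance from Su(Hw) to the Mod(mdg4) summit was 36 bases there (24 to 54) and 24 at the others (22 to 27), with overlapping intervals. Of the distant CP190 summits, 26.9% lay within 500 bases of a gene end (interval 18.3 to 37.7), and of the near ones 31.4% did (28.5 to 34.3). The longest distance to CP190 was 5016 bases, within the glucose transporter gene Glut1 on 3L (963084 to 963694), where Mod(mdg4) and Su(Hw) had their summits on the same base. Distances of 2746, 2664, 2622 and 2474 bases followed within CG43373, near lncRNA:CR44443, within CG4459 and near betaTub60D. At all 5 of these the CP190 summit was at another triple site without CLAMP. The longest distance to Mod(mdg4), 1030 bases, was also found within Glut1, and 1017 bases near Tmhs came next. At both of these the CP190 summit was distant too, by 1000 and 976 bases. Distances to Mod(mdg4) of 723, 681 and 596 bases followed within CG5065, near Spn43Aa and within CG30103. Of the 14 sites with Su(Hw) and Mod(mdg4) on the same base, the strongest were in lncRNA:CR45552, Glut1, Dgk, which encodes a lipid kinase, near the deacetylase gene Sirt2 and in PVRAP. In Dgk, with 17.9-fold Su(Hw) enrichment, the CP190 summit was on that base too, the single case among the 1057.

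Most partner peaks held a single site. Of the 1005 CP190 peaks nearest by summit, 959 held 1 site, 40 held 2 and 6 held 3, so 98 sites shared a CP190 peak. Of the Mod(mdg4) peaks 5 held 2 sites. Sites that share a CP190 peak are not independent observations of CP190.

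The sites were spread over all large arms at similar density. There were 7.19 sites per Mb on 2L (169 sites), 7.83 on 2R (198), 7.97 on 3L (224), 8.73 on 3R (280) and 7.77 on X (183), and arm 4 held 3. The share of Su(Hw) peaks that met the rule was 24.7% on X (21.8 to 28) and 27.6% to 32.5% on the other large arms. X held 17.3% of the sites and 17.6% of the arm length. The centromere-proximal parts held 16 sites (1.51%), of which 9 were on X and none on 3R. Of all Su(Hw) peaks 3.85% lay there, but shares of the classes were as low as 0.84% with CP190 alone and 1.9% with none of these proteins, and triple sites with CLAMP had 9.34%. The strongest of the 16 lay within fog, a gene of gastrulation, on X (23.1-fold).

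Most neighbouring sites were far apart, with a minority close together. The median distance to the next triple site without CLAMP on the arm was 51184 bases (44751 to 59140), with an interquartile range of 14809 to 153405.5 bases. For all Su(Hw) peaks, which are more numerous, the median was 16634 bases. On single arms it ran from 41020 bases on 3R to 62892.5 on X. Of the 1051 distances 202 (19.2%) were under 10000 bases and 63 were under 2000. The next Su(Hw) peak along the arm was again a triple site without CLAMP for 426 of 1056 of them (40.3%), against 28.7% of all Su(Hw) peaks. After a triple site with CLAMP it was one in 37.2% (67 of 180), close to the 40.3% after a triple site without CLAMP. After a Su(Hw) peak with CP190 but neither Mod(mdg4) nor CLAMP it was one in 25.7%, and after a Su(Hw) peak with none of these proteins in 20%. Neighbours can share a CP190 peak, a gene and a chromatin domain, and their part in these shares was not tested.

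**Figure D3:**
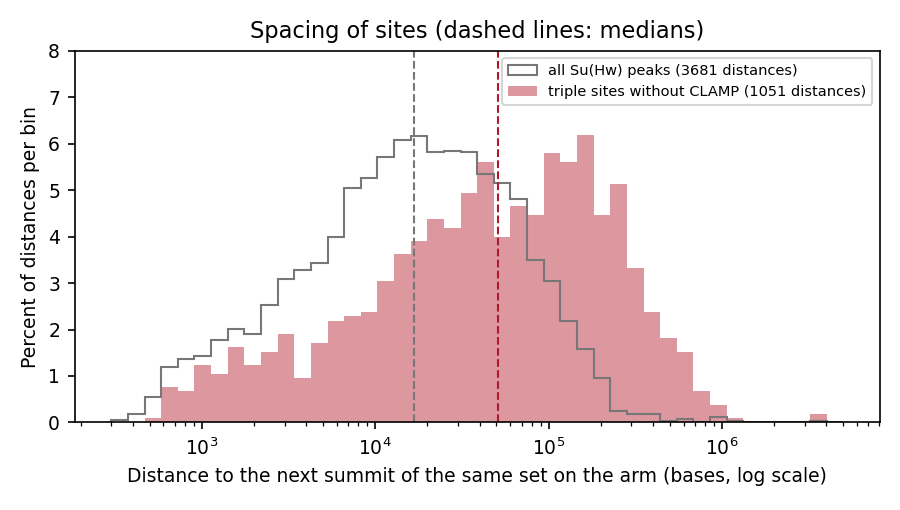
Distance in bases (x axis, log scale) from each summit to the next summit of the same set on the arm, as percent of distances per bin (y axis), for triple sites without CLAMP (red) and all Su(Hw) peaks (grey line). Dashed lines mark the medians of 51184 and 16634 bases, and the red distances reach 3952648 bases.

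The tightest pairs lay within one CP190 peak each. The shortest distance, 495 bases, was found on 2L at the alcohol dehydrogenase locus, with summits at 14618852 and 14619347. The first lies within Adh, Adhr and the surrounding gene osp, and the second within osp alone, with 11.3- and 9-fold Su(Hw) enrichment. Distances of 589 bases, between CG31821 and beat-Ib, and 594 bases, within the teneurin gene Ten-m, followed. The longest distances crossed the centromere-proximal parts of 3L (3952648 bases from nAChRalpha4 to CR43170) and 2R (3879346 bases from near CG40191 to gus). The third, 1081129 bases on X from fs(1)M3 to CG12541, lay outside them and held 144 whole genes and 29 other Su(Hw) peaks. It thus lacked the triple combination without CLAMP rather than Su(Hw).

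With sites linked at 10000 bases or less, 352 sites fell into 150 groups of 2 or more, and 705 stood alone. The largest group held 6 sites over 22799 bases on 3R (22326851 to 22350221), across CG7080, CG33721, CG13862, CG5391, CG5388 and CG5386, with Su(Hw) folds of 3.98 to 19.7. Groups of 5 lay within Ten-m, across nvy and the fatty acid transporter gene Fatp3, and on 2R from 7136855 to 7142689, where no gene of the table was touched.

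The stretch between neighbouring sites usually held genes and often CLAMP. Between neighbours lay a median of 6 whole genes, and 206 of 1051 stretches (19.6%) held none. Of the stretches 61% held a CLAMP peak of either antibody. Stretches under 10000 bases held one in 9.41% of cases (19 of 202), and those under 50 kb in 28.7% (149 of 520).

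The rule kept CLAMP peaks off the sites, so the gap to CLAMP is a description only. It was not measured for other Su(Hw) peaks. The gap from the edge of the Su(Hw) peak to the nearest CLAMP peak of either antibody had a median of 14021 bases (12210 to 15085). It was under 1000 bases at 67 sites (6.34%) and under 10000 bases at 40.4%. The smallest gaps were 15 bases within CG17834, 35 bases within CG33523 and 68 bases within CG2082. Just outside the rule, the smallest overlaps with CLAMP that left a triple site out were 21 bases near Rip11, 32 bases within CG33099 and 62 bases within CG42855. The smallest overlap with Mod(mdg4) that kept a site was 54 bases, within the dopamine receptor gene Dop1R2, and with CP190 it was 242 bases. The closest Mod(mdg4) peak that missed an otherwise fitting site lay 124 bases away within Ugt301D1.

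After Clamp dsRNA, 1 of the 1057 sites (0.0946%, interval 0.0167 to 0.534) carried a peak of the second CLAMP antibody. The site lay on 3L (5089268 to 5090149) near lncRNA:CR46198 and shared 148 bases with a dsRNA peak of 2.09-fold enrichment. Of all Su(Hw) peaks 2.90% had a dsRNA peak, and of triple sites with CLAMP 9.34% (17 of 182). The other classes chosen without CLAMP were low as well. Su(Hw) peaks with CP190 but neither Mod(mdg4) nor CLAMP had 0.21% (3 of 1429, interval 0.0714 to 0.615). Those with none of these proteins had 0.887% (7 of 789). The rule did not use the dsRNA list, but it did use the mock list of the same antibody, so the low share at the sites is no independent result.

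Gene ends held a larger share of the triple sites than of Su(Hw) peaks lacking Mod(mdg4). The Su(Hw) summit was within 500 bases of a gene end at 318 sites (30.1%, interval 27.4 to 32.9), against 18.0% of all Su(Hw) peaks. It was 12.7% (11.1 to 14.6) for Su(Hw) peaks with CP190 but neither Mod(mdg4) nor CLAMP, and 7.22% (5.62 to 9.25) for those with none of these proteins. Triple sites with CLAMP, at 31.9% (25.5 to 39), had an interval that holds the value of those without. The median distance to the nearest gene end was 1431 bases (1208 to 1685) at triple sites without CLAMP. At triple sites with CLAMP it was 1114 bases (830 to 1764), with an overlapping interval. It was 3587 and 5553 bases in the Su(Hw) classes lacking Mod(mdg4). Of all CP190 summits 56.5% lay at gene ends, and the part of CP190 and of its strength in these shares was not tested. No test was made, since regions of one pooled list are not replicates.

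Among the classes without CLAMP, the same order of the shares was found at like strength of Su(Hw). Triple sites with CLAMP were not divided by strength here. In the weakest of 4 classes of all Su(Hw) peaks by fold, 35.1% of triple sites without CLAMP (20 of 57) were at gene ends, then 42.6% (72 of 169), 32.2% (104 of 323) and 24% (122 of 508) in the strongest. Su(Hw) peaks with CP190 but neither Mod(mdg4) nor CLAMP had 16.9%, 14.5%, 9.46% and 8.87% in the same classes. Those with none of these proteins had 8.29%, 7.47%, 5.11% and 4.08%, the last from 2 of 49 peaks. The intervals of these classes lacking Mod(mdg4) were apart in the weakest class (13.3 to 21.2 and 5.87 to 11.6) and met at 11.5 in the second. They overlapped in the third (6.94 to 12.8 and 2.5 to 10.2) and in the strongest (5.93 to 13.1 and 1.13 to 13.7). These are values side by side, with no test. Among triple sites without CLAMP the share was lowest in the strongest class, with an interval of 20.5 to 27.9. That interval lay below the one of the second class (35.4 to 50.1). It overlapped those of the third (27.3 to 37.5) and of the weakest (24 to 48.1).

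**Figure D4:**
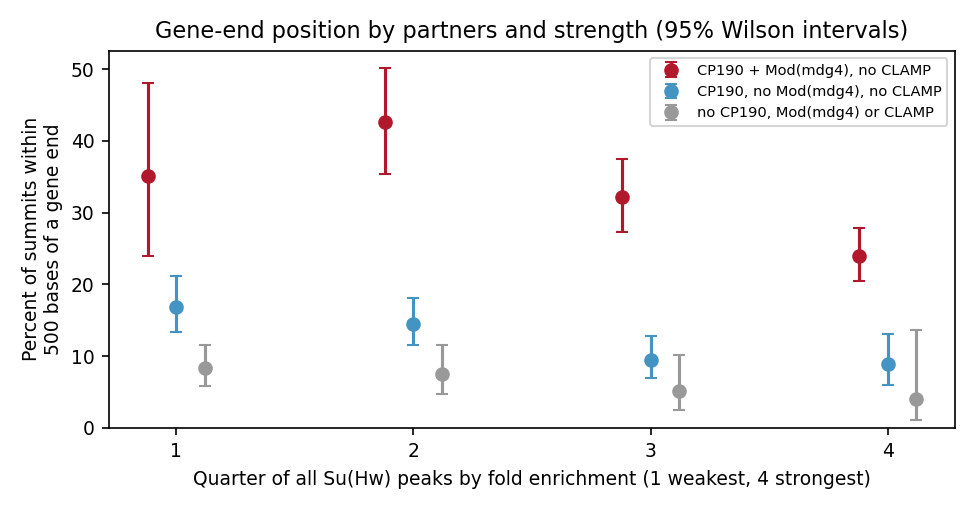
Percent of Su(Hw) summits within 500 bases of a gene end (y axis) in 4 classes of all Su(Hw) peaks by fold enrichment (x axis), for 3 sets of partners, with 95% Wilson intervals. Triple sites without CLAMP (red, 24% to 42.6%) lie above Su(Hw) peaks with CP190 alone (blue, 8.87% to 16.9%) in each class.

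Sites inside and outside genes were almost equally frequent. The Su(Hw) summit lay between the ends of a gene at 574 sites (54.3%, interval 51.3 to 57.3). This share was 63.4% for all Su(Hw) peaks and 71.5% for those with none of these proteins. It was 66.1% for Su(Hw) peaks with CP190 but neither Mod(mdg4) nor CLAMP. For triple sites with CLAMP it was 57.1% (49.9 to 64.1), an interval that holds the 54.3% of those without. Of the sites within 500 bases of a gene end, 192 lay outside every gene and 126 inside one. The gene table has no strand and no exons, so starts and ends of transcription, exons and introns were not told apart. The 483 sites outside genes lay in gaps between genes with a median of 5710 bases (4305 to 6852), counted per site. For all Su(Hw) peaks outside genes, counted the same way, the median was 9470 bases (8756 to 10453).

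Genes that held sites were long. Sites lay within 472 genes with a median length of 24422.5 bases, against 1709 for all 17673 genes, and 444 of them were protein-coding. Genes with any Su(Hw) peak inside were almost as long, with a median of 21716.5 bases. Of the 472 genes 376 held 1 site and 96 held 2 or more. The most sites, 8, lay within kirre, which encodes an immunoglobulin-family adhesion protein of myoblast fusion, on X (2740384 to 3134532), with Su(Hw) folds of 3.5 to 14. The dystrophin gene Dys (7.4- to 10.5-fold) and Ten-m (4.96- to 14.9-fold) held 6 sites each, and tei and the heparan sulfate sulfotransferase gene Hs6st held 5 each. Genes with 4 included bru3, pum and heph, which encode RNA-binding proteins, the neuropeptide receptor gene RYa-R, and PVRAP.

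The sites took very different shares of the Su(Hw) peaks in these genes. All 4 Su(Hw) peaks in RYa-R were triple sites without CLAMP, and so were 4 of 5 in spri. In bru3 4 of 34 Su(Hw) peaks were, and in Dys 6 of 16. Over all Su(Hw) peaks on the arms the share was 28.7%. These genes were picked for holding many sites, so their shares are selected values. In Ten-m the 6 sites fell within 24.1 kb of a 115 kb gene, while in Dys they spanned 129 kb of 136 kb. PVRAP, at 29.1 kb, had the densest set of these, with 13.7 sites per 100 kb and folds of 8.89 to 21.8.

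**Figure D5:**
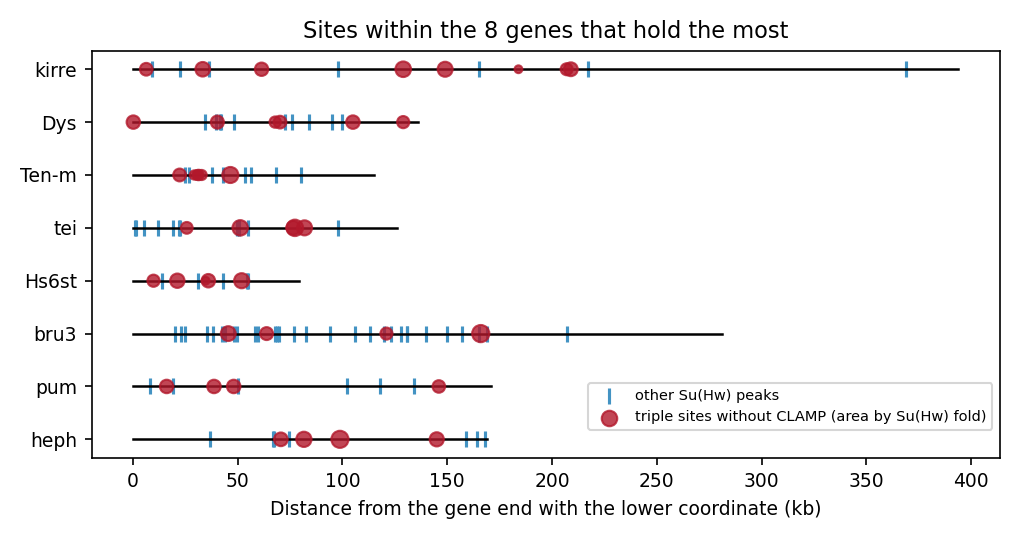
Position of Su(Hw) peaks in the 8 genes with the most triple sites without CLAMP (longest first among genes with equal numbers), in kb from the gene end with the lower coordinate (x axis). Red circles are these sites, with area by Su(Hw) fold enrichment, and blue ticks are other Su(Hw) peaks. In kirre 8 of 15 and in bru3 4 of 34 peaks are red.

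Gene groups were compared by the share of genes with a site inside or within 2000 bases. For all 17673 genes this was 7.29% (1289 genes), and for any Su(Hw) peak 16.0%. The share rose with gene length, from 4.88% of genes under 2 kb to 25.6% of genes from 20 to 50 kb and 41.7% of longer ones. The groups below were formed by gene symbol or gene type, and the neuronal, germline and insulator protein groups are short lists of chosen genes. Their shares are to be read against gene length.

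Neuronal genes had the largest share, 10 of 22 (45.5%, interval 26.9 to 65.3), with a median length of 37056.5 bases. Any Su(Hw) peak was found at 16 of the 22 (72.7%), against 16.0% of all genes. No site was found at elav, Syt1, nSyb, Syx1A, para, Sh, cac or futsch, nor at the remaining nicotinic receptor genes of the list. Of the 14 neuronal genes over 20 kb, 4 of 6 up to 50 kb and 4 of 8 above it had a site, shares set beside the 25.6% and 41.7% of all genes of such length. Genes of nicotinic acetylcholine receptor subunits made up 6 of the 10: nAChRalpha1 (a pair of sites, 10.4- and 8.77-fold), nAChRalpha4, nAChRalpha5 (17.9-fold), nAChRalpha6, nAChRalpha7 and nAChRbeta2 (14.3-fold). The others were slo and Shal, which encode potassium channels (22.6- and 5.71-fold), brp, which encodes an active zone protein of synapses (13.4-fold), and Rdl, a GABA receptor gene (12.5-fold). The genes dpr and DIP, which encode surface proteins of neuronal recognition, had 7 of 32 (21.9%), with dpr8 (18.2-fold) and DIP-alpha (15.8-fold) the strongest, and a median length of 32525.5 bases.

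Cuticular protein Cpr genes had 15 of 70 (21.4%, interval 13.4 to 32.4), and they are short, with a median of 1093.5 bases. These genes lie in clusters, and 12 sites accounted for the 15 genes. On 2R a site within Cpr50Ca had 18.1-fold Su(Hw) enrichment, and one within Cpr47Ee had 16.2-fold with 7.76-fold Mod(mdg4). On 3L the summit nearest to a gene end of the group lay 55 bases from Cpr78Cb, with 8.05-fold enrichment. Osiris genes, another clustered family expressed in the epidermis, had 5 of 25 (20%) from 4 sites, the strongest within Osi24 (18.9-fold). Jonah protease genes, which encode digestive enzymes, had 3 of 16 (interval 6.59 to 43), at Jon66Cii, Jon74E and Jon99Fii. Ugt genes of detoxification had 5 of 35 (14.3%, interval 6.26 to 29.4). The intervals of the Jonah and Ugt groups hold the 7.29% of all genes.

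Chemosensory groups ranged from 1.67% to 7.84%. Odorant receptor genes had 4 of 59 (6.78%): Or43a, Or47a, Or59a and Or92a, with folds of 28.8, 12.7, 12.3 and 12.2. Odorant binding protein genes had 4 of 51 (7.84%), of which Obp56a, Obp56b and Obp56c shared a site, and Obp8a had its own. Gustatory receptor genes had 2 of 60 (3.33%, interval 0.919 to 11.4), Gr59a and Gr59b, from a single site. Ionotropic receptor genes had 1 of 60 (1.67%, interval 0.295 to 8.86), Ir67a. Cytochrome P450 genes had 6 of 85 (7.06%), with Cyp12e1 (16.9-fold) and Cyp312a1 (16.4-fold) the strongest.

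The remaining groups had shares of 0% to 9.09%. Cytoplasmic ribosomal protein genes had 2 of 92 (2.17%), RpLP0 (17.7-fold) and RpS15Aa (10.1-fold), and proteasome genes 1 of 48, Rpt6R. MicroRNA genes had 3 of 260 (1.15%), mir-4985, mir-2494 and mir-4959. No Hox gene of 8 (interval 0 to 32.4) and no insulator protein gene of 12 (interval 0 to 24.2) had one. Both intervals hold the 7.29% of all genes. Any Su(Hw) peak was found at 3 of the 8 and 1 of the 12. Small nuclear RNA genes had 1 of 32, snRNA:U5:35D, although 12 of the 32 had a Su(Hw) peak. Transfer RNA genes had 15 of 290 (5.17%) from 12 sites, the strongest by tRNA:Arg-TCG-2-3 and tRNA:Arg-TCG-2-4, which share the site in pyd. Long noncoding RNA genes had 107 of 1959 (5.46%). Of 11 germline genes 1 had a site (9.09%, interval 1.62 to 37.7), bam, a gene of germline differentiation (7.57-fold).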

How the data were processed

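ChIP-seq libraries of Kc167 cells were grouped by treatment and antibody from their titles. The submitters' processing notes name MACS2 2.1.0.20150731, Picard, SAMtools 1.2, Bowtie2 2.2.9 and cutadapt 1.8.1, and build dm6, per the labels; neither settings nor a peak threshold are given there. The authors deposited 1 narrowPeak list per antibody and treatment, with peak names that carry the word pooled. The deposited fold enrichment is a ratio of ChIP to background; the deposited -log10 q was used for 1 alternative, and the deposited score (10 times the -log10 q, rounded down) was not used. Stricter thresholds upstream would remove weak partners and weak CLAMP peaks alike.

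Overlap, spacing and gene distances were computed with python 3.11.15, numpy 2.4.6, pandas 2.3.3 and scipy 1.17.1, after a test on simulated lists. A partner with several overlapping peaks was taken by its nearest summit. Gene ends are those of 17673 RefSeq genes (Release 6 plus ISO1 MT), with no strand or exons. Centromere-proximal parts were set as 2L beyond 22 Mb, 2R before 5.5 Mb, 3L beyond 23 Mb, 3R before 4.5 Mb and X beyond 21 Mb. Shares have 95% Wilson intervals and medians exact binomial intervals. Named were the 10 sites with the largest Su(Hw) fold, 5 each by Mod(mdg4) and CP190 fold, the 8 genes with the most sites, extremes of spacing and summit distance, and members of 20 gene groups; further genes were named after their values were seen. The sites, gene groups and rules were chosen with earlier results of these data known. No genome sequence was used here, so the planned motif search was not run.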

Additional observations from a re-analysis of the deposited data

How the results depend on the processing

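Of 52 values recomputed under 11 alternatives for 6 results, 44 stayed within the interval of the reported value or, for the number of sites, within 1.5 times it. With the 50% of each list with the largest fold, there were 669 sites, a median spacing of 102555 bases and a median distance of 22 bases to Mod(mdg4). At a -log10 q of at least 10, the spacing was 74133 bases and 33.9% of sites were at gene ends. That share was 17.4% within 200 bases, 42.5% within 1000 bases and 27.1% with protein-coding genes only; the first pair follows from the width of the window. Fewer peaks give wider spacing by construction, and the cause of the other shifts was not tested. The number of sites was 950 with overlap of at least 50% of the Su(Hw) peak, 1007 by summits within 250 bases and 990 with no CLAMP peak within 1000 bases. Sites could not be recomputed without one replicate, since the lists are pooled. No paired analysis was possible because each list pools its libraries. Depth is unknown, so the absence of CLAMP depends on the authors' threshold.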

Other observations

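Some gene families, found by scanning symbols after the values were seen and therefore not tested, had sites at many members. Of 6 Acbp genes, which encode acyl-CoA binding proteins, 5 had a site inside or within 2000 bases, from 3 sites on 3L with Su(Hw) folds of 4.8 to 24.4. Of 6 Drsl genes, relatives of the antifungal peptide gene Drs, 4 had one, all from a single site on 3L (3315274 to 3315789) with 5.4-fold Su(Hw) enrichment. Of 14 Jhbp genes 5 had one (35.7%), from 4 sites, and of 29 ppk genes, which encode sodium channel subunits, 6 had one (20.7%), from 6 sites. In such clusters 1 site counts for several genes. Of all genes 7.29% had a site inside or within 2000 bases, with 4.88% of genes under 2 kb and 5.22% of genes from 2 to 5 kb. The families were picked for their many sites, so their shares are selected values.

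Outside the 6 arms, 102 Su(Hw) peaks lay on unplaced sequences, Y and the mitochondrial genome. Of these 17 had both CP190 and Mod(mdg4), and each of the 17 also overlapped a CLAMP peak, so that 0 met the rule. A further 64 had Mod(mdg4) without CP190.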
